A study of Mus musculus with 23 samples.

Results

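The 8 genes described here were listed as identity genes of the alpha intercalated cell, though not all are particular to it. They were taken from 54393 genes by matching Ensembl IDs to the symbols Slc4a1, Aqp6, Kit, Adgrf5, Foxi1, Rhcg, Rhbg and Slc26a7. All 8 were found, all 8 had counts above 0 in every library, and all 8 passed the filter on low counts. RNA came from connecting tubules and cortical collecting ducts that were microdissected from mouse kidney, and 23 libraries were sequenced. Mice of all 4 groups carried Pax8-rtTA, TRE-LC-1 and MRflox/flox, so that doxycycline switches on Cre and removes floxed Nr3c2, the gene of the mineralocorticoid receptor (MR). The KO-NK group (n = 6) was Nr3c2 knockout on a normal potassium diet and the KO-LK group (n = 6) was Nr3c2 knockout on a low potassium diet. Both drank doxycycline at 2 mg/ml in 5% sucrose for 2 weeks and then had a washout of 2 weeks with a rescue diet. The CT-HK group (n = 6) was control on a high potassium diet and the CT-NK group (n = 5) was control on a normal potassium diet. These mice drank 5% sucrose without doxycycline, and all 4 groups were kept on their potassium diets for 4 days. Pax8 drives rtTA along the renal tubule and not in intercalated cells alone. Knockout and doxycycline cannot be told apart in this design. Ages are not in the labels, nor is it stated that libraries came from separate mice, so a p-value here reflects the spread among libraries, which may be technical.

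Intercalated cells sit between the principal cells of the connecting tubule and collecting duct and adjust acid-base balance. The alpha type secretes protons into urine through an apical H+-ATPase and returns bicarbonate to blood through the Slc4a1 exchanger. Ammonia crosses the same cells through the Rh glycoproteins Rhbg and Rhcg, which neighbouring connecting tubule and principal cells also make. Foxi1 is the transcription factor needed to form the lineage. Aldosterone acts through MR, and it is known to raise proton secretion in this part of the nephron.

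MR and related steroid receptors bind paired copies of a short DNA element, and 1 copy reads TGTTCT, or AGAACA on the other strand. The windows that held it are shown because the study removed this receptor. RefSeq promoter windows on GRCm38.p6, which run from 250 bases before to 50 bases after an annotated start, were at hand for 5 of the 8 genes. The element, searched on both strands, was in 3 of their 7 windows, 1 each for Rhcg, Foxi1 and Adgrf5. The windows of Kit overlap almost fully, so the 7 are not separate promoters. The Adgrf5 window at the gene's 5′ end (chr17:43360181-43360480) held no match, and the one shown lies at a start within the gene. The same letters are in 19.0% of the 32851 windows of all genes. In the sequences below, given 5′ to 3′ on the gene's own strand, capitals mark the element.
Rhcg (chr7:79617608-79617907, minus strand): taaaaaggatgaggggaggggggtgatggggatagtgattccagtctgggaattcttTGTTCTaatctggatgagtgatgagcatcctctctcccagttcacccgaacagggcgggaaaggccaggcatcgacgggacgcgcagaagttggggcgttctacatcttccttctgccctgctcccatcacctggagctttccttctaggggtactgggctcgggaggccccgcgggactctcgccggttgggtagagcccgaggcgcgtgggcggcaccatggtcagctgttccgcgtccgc
Foxi1 (chr11:34208040-34208339, minus strand): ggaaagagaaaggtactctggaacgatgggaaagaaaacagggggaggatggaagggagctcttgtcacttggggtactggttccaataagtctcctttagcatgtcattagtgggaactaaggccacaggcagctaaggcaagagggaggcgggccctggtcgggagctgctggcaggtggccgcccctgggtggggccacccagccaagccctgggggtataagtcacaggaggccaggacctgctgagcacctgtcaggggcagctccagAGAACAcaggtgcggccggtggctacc
Adgrf5 (chr17:43389216-43389515, plus strand): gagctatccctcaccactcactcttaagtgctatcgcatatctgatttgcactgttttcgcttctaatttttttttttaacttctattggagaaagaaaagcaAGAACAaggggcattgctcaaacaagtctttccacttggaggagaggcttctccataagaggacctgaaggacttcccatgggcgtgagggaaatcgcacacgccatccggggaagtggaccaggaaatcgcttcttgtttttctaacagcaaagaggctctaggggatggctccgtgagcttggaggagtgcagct
The element begins 193 bases before the start in Rhcg, 23 bases after it in Foxi1 and 147 bases before it in Adgrf5. A match of these letters is a description of the window and not a binding site. Rhbg, Slc4a1 and Slc26a7 are named only.

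Libraries held 16158408 to 34154475 estimated counts. Nr3c2 was checked first and averaged 58.8 ± 10.4 CPM (read counts put on 1 library scale with TMM factors; SD, n = 6) in KO-NK and 54.3 ± 15.6 CPM (n = 6) in KO-LK, against 108 ± 25.8 CPM (n = 6) in CT-HK and 108 ± 33.2 CPM (n = 5) in CT-NK. The ranges overlapped, with knockout libraries up to 74.1 CPM and control libraries down to 66.6 CPM. On TPM, Nr3c2 averaged 34.9 ± 5.16 in KO-NK and 34.1 ± 8.89 in KO-LK, against 38.2 ± 9.67 in CT-HK and 40.9 ± 13.5 in CT-NK, a difference smaller than the spread. Counts on olfactory and vomeronasal receptor genes passed 2500 CPM in 5 libraries and reached 6826 CPM in KO-NK replicate 3, and their source was not tested. Proximal tubule transcripts were richest in CT-HK replicate 6 and CT-NK replicate 5. KO-NK replicate 3 also had the lowest summed level of the 8 genes, 1825 CPM, against 2249 to 5438 CPM in the other libraries. It was also the lowest library in the summed levels of the principal cell (4932 CPM), beta intercalated (1695 CPM), acid secretion (5682 CPM) and further intercalated genes (1245 CPM). In bulk RNA of this kind, fewer cells of a type and less RNA per cell cannot be told apart.

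Compared per unit of transcript length, the 8 genes covered a wide range. Median TPM (a share of transcripts, scaled by their length) over the 23 libraries was 753 for Rhcg, 410 for Rhbg and 206 for Foxi1. Slc4a1 (24.9 TPM), Kit (20.8 TPM), Aqp6 (18.1 TPM) and Adgrf5 (15.9 TPM) formed a lower tier. The ranges of these 4 genes over libraries overlapped, from 6.28 TPM for Kit to 135 TPM for Slc4a1. Within the same library Slc4a1 was mostly above Kit, but not in KO-NK replicates 3 and 4 or KO-LK replicate 3. Differences between neighbours in that order were not tested. The lowest Foxi1 value was 90.3 TPM and lay below the highest Slc4a1 value. Slc26a7, at a median of 0.189 TPM and 0.494 CPM, was close to the detection floor. A level does not show which cells made the RNA, and 7 of the 8 genes were readily detected in this tissue. The Slc26a7 exchanger, which alpha intercalated cells are best known to use in the outer medulla, was nearly unread in these cortical segments.

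**Figure D1:**
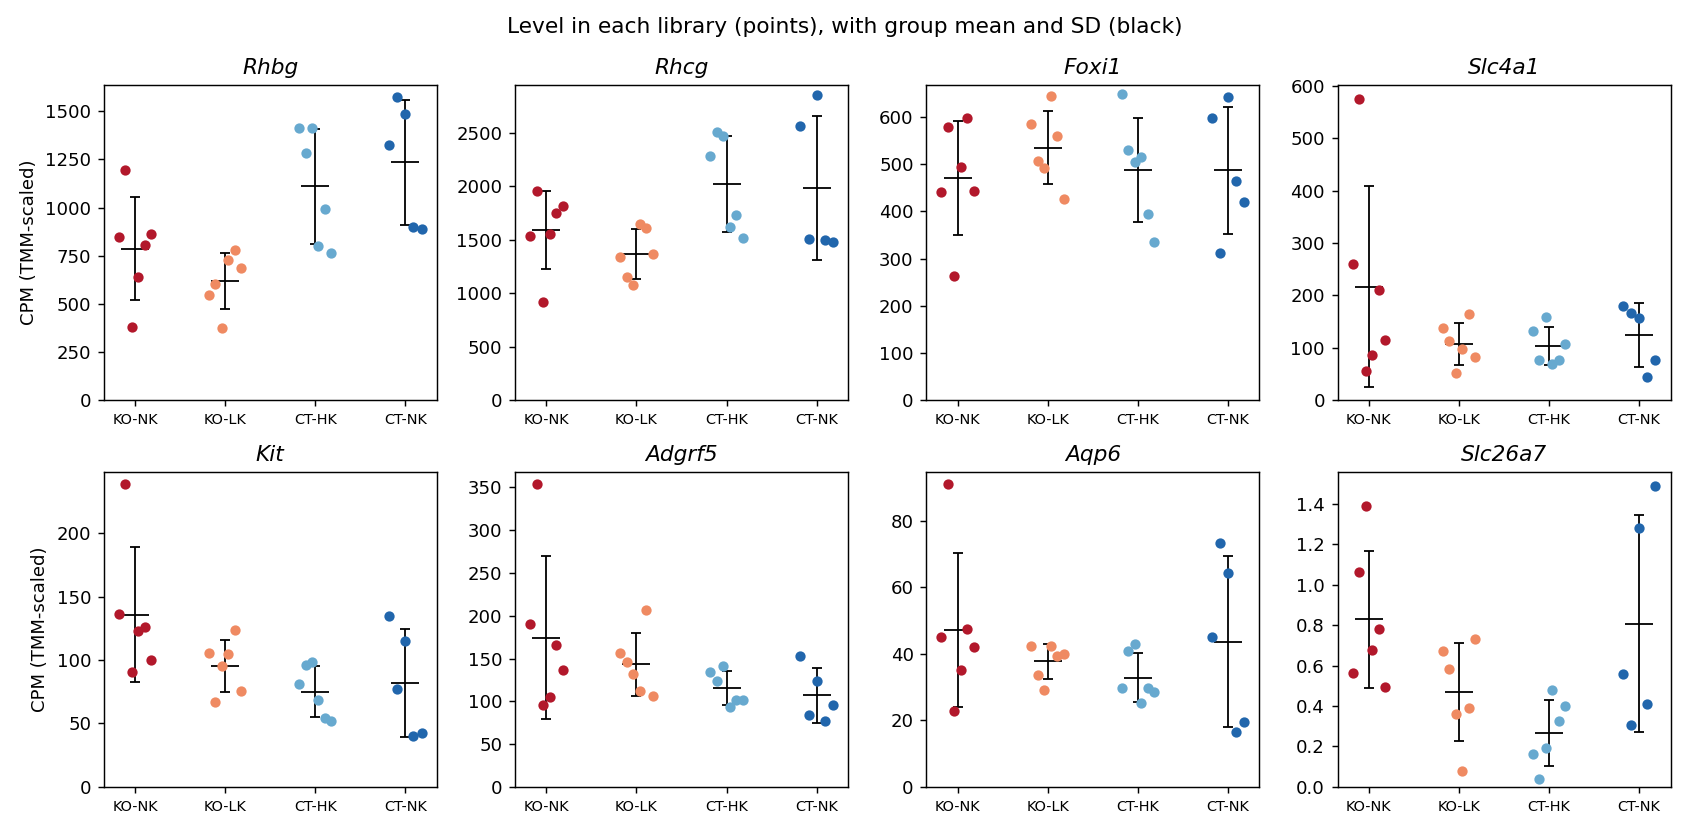
Level of each gene in each library, as CPM after TMM scaling on a linear axis from 0, for the 4 groups, with group mean and SD in black. Rhbg was at 373 to 778 CPM in KO-LK libraries and at 887 to 1577 CPM in CT-NK libraries, with no overlap, while Foxi1 overlapped in all groups.

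Across the knockout and control libraries the 8 genes did not move as 1 block. Rhbg fell in KO-LK against CT-NK and in the pooled comparison, Rhcg lay lower without passing the threshold, Foxi1 overlapped in all groups, and Kit and Adgrf5 lay higher without passing. A call means an adjusted p under 0.05 in edgeR's quasi-likelihood test, with Benjamini-Hochberg adjustment over the 25829 genes tested. The means of both knockout groups against the means of both control groups gave 1 called member of 8, Rhbg, against 10.5% of all genes called, 4.67% higher and 5.86% lower. The members' median log2 fold change there was 0.29, with 6 above 0 and 2 below, and the median of all genes was 0.09. That pooled comparison sets knockouts on normal and low potassium against controls on normal and high potassium, and KO-LK against CT-NK also differs in diet, so genotype and diet cannot be told apart in either. KO-NK against CT-NK is the only comparison of genotypes on the same diet. Every comparison with CT-NK shares the same 5 control libraries.

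Rhbg is the basolateral ammonia transporter (ENSMUSG00000104445, chromosome 3, 88242874 to 88254709, minus strand; GRCm38 here and for the other genes). In KO-NK, Rhbg was at 848, 1193, 379, 637, 805 and 863 CPM, and the KO-LK libraries held 546, 601, 373, 727, 778 and 687 CPM. The CT-HK libraries held 1416, 1283, 1414, 802, 991 and 763 CPM, and the CT-NK libraries held 1328, 1577, 1485, 898 and 887 CPM. All 6 KO-LK libraries lay below every CT-NK library, and 5 of 6 KO-NK libraries did; KO-NK replicate 2 was the exception. All 12 knockout libraries lay below the control median of 1283 CPM.

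Rhbg averaged 619 ± 147 CPM in KO-LK (SD, n = 6) and 1235 ± 325 CPM in CT-NK (n = 5), a log2 fold change of -0.997 (SE 0.25, edgeR adjusted p = 0.0376). This was the only member called of 8 in KO-LK against CT-NK, where 2.04% of all genes were called (0.914% higher and 1.13% lower), and also the only one whose groups did not overlap; 1.46% of all genes lay lower in KO-LK without overlap. In KO-NK, Rhbg averaged 787 ± 270 CPM (n = 6), which gave -0.65 against CT-NK (SE 0.25, edgeR adjusted p = 0.251) and -0.50 against CT-HK at 1111 ± 299 CPM (n = 6; SE 0.24, edgeR adjusted p = 0.297). Neither passed the threshold. Over both knockout and both control groups the log2 fold change was -0.75 (SE 0.18, edgeR adjusted p = 0.00605).

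The pooled Rhbg call held without any 1 of the 23 libraries, with edgeR adjusted p between 0.00199 and 0.0141. The KO-LK call did not hold without CT-NK replicate 1, 2 or 3 or without KO-LK replicate 3, with edgeR adjusted p between 0.0650 and 0.0972. On the authors' TPM the Rhbg means were 411 ± 104 in KO-NK, 334 ± 73.8 in KO-LK, 408 ± 101 in CT-HK and 538 ± 201 in CT-NK. On that scale limma on log2(TPM + 1) gave -0.64 for KO-LK against CT-NK (adjusted p = 0.0520), -0.32 for the pooled comparison (adjusted p = 0.132) and 0.01 for KO-NK against CT-HK, so neither call was made on TPM and the lower level than in CT-HK was not seen there. The pooled median log2 fold change was 0.32 over the 19668 genes of that limma fit and 0.09 over the 25829 genes of edgeR. With no filter on low values it was 0.10 for limma and 0.08 for edgeR. The first 2 medians thus differ in the genes tested as well as in the scale. Proximal tubule transcripts summed to 90.2 to 332 CPM in KO-LK and 70.5 to 4382 CPM in CT-NK. With proximal tubule and thick limb scores as covariates the KO-LK value was -1.01 (edgeR adjusted p = 0.172), and leaving out CT-HK replicate 6 and CT-NK replicate 5 gave -1.09 (edgeR adjusted p = 0.0335).

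The Rhbg gene model shares 1190 exon bases with a protein-coding gene model on the same strand, Gm38392, so their counts are uncertain. Gm38392 held 9.52 to 41.1 CPM in the knockout libraries and 24.7 to 81.9 CPM in the control libraries. With the counts of both summed, Rhbg in KO-LK against CT-NK was at -0.98 (edgeR adjusted p = 0.0402) and in the pooled comparison at -0.74 (edgeR adjusted p = 0.00617).

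Rhcg, the ammonia transporter found at the apical and basolateral membranes (ENSMUSG00000030549, chromosome 7, 79593363 to 79617657, minus strand), held 1532, 1955, 918, 1557, 1750 and 1812 CPM in KO-NK. The KO-LK libraries held 1340, 1152, 1077, 1646, 1606 and 1365 CPM of Rhcg. The CT-HK libraries held 2285, 2507, 2468, 1619, 1733 and 1518 CPM and the CT-NK libraries 2566, 1508, 2850, 1498 and 1480 CPM. The groups overlapped, because 3 CT-NK libraries lay at 1480 to 1508 CPM and within the knockout range; 4 of 6 KO-LK libraries lay below all of CT-NK. Rhcg had log2 fold changes of -0.32 in KO-NK and -0.54 in KO-LK against CT-NK, and of -0.35 in KO-NK against CT-HK, none of them called. The pooled value was -0.44 (SE 0.15, edgeR adjusted p = 0.0687). DESeq2 called it with an adjusted p of 0.0114, in a fit that called 3757 genes there. On TPM the value was 0.02, so its direction is not the same on that scale. Without KO-NK replicate 3, edgeR called Rhcg in the pooled comparison (-0.32, adjusted p = 0.0311) and in KO-LK against CT-NK (-0.50, adjusted p = 0.0356), and without CT-HK replicate 4 it called the pooled value (-0.47, adjusted p = 0.0486).

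Foxi1, the lineage transcription factor (ENSMUSG00000047861, chromosome 11, 34204338 to 34208089, minus strand), differed least between groups on the count scale. It held 442, 580, 263, 495, 597 and 444 CPM in KO-NK and 585, 507, 492, 644, 560 and 426 CPM in KO-LK. It held 649, 530, 506, 515, 394 and 335 CPM in CT-HK and 599, 312, 643, 464 and 420 CPM in CT-NK. All 4 groups overlapped, 6 of 12 knockout libraries lay above the control median, and only KO-NK replicate 3 fell below every control library. The pooled log2 fold change was 0.04 (SE 0.14, edgeR adjusted p = 0.951). On log2(TPM + 1) limma gave 0.49 (adjusted p = 0.00544), a call that the count fits did not make. That limma fit called 8124 of 19668 genes in the pooled comparison.

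**Figure D2:**
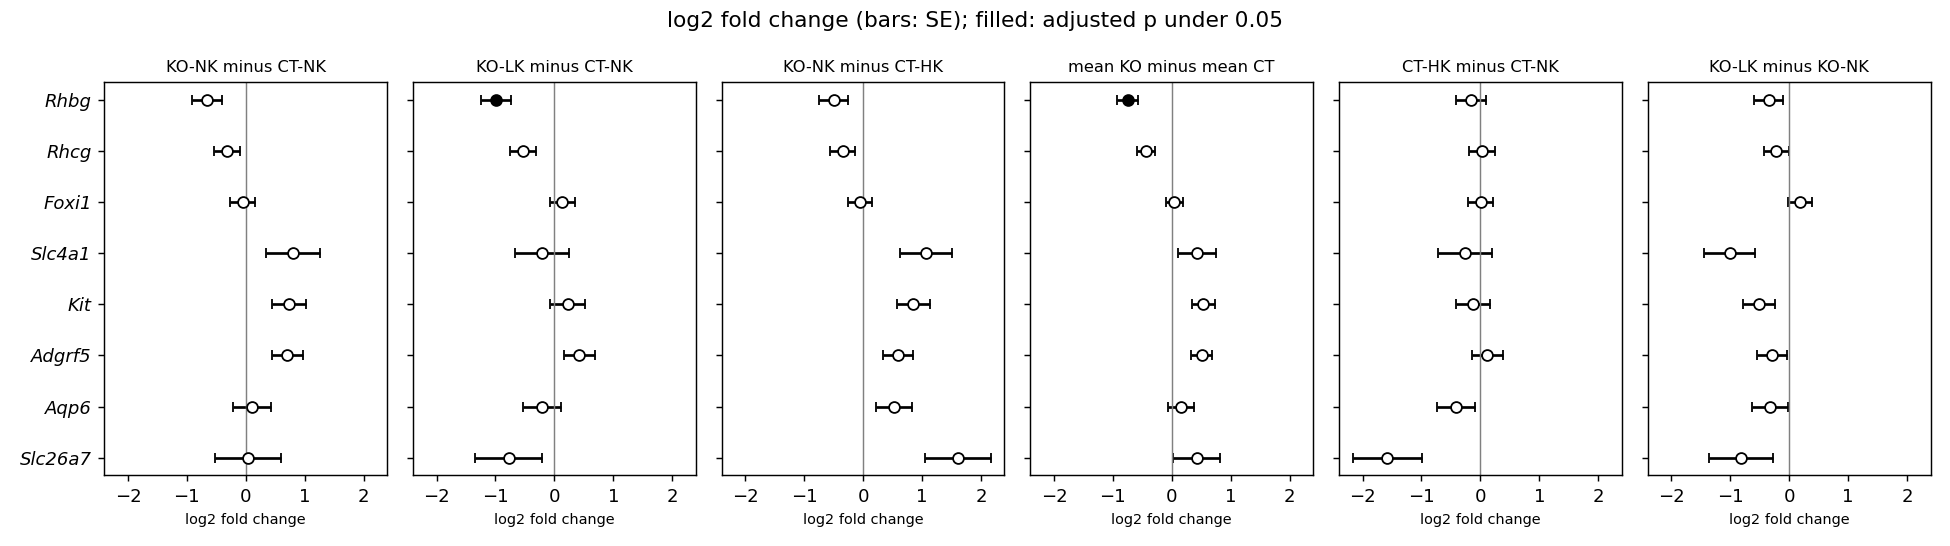
log2 fold change of each gene (points) with its SE (bars) in 6 comparisons, with filled points where the edgeR adjusted p was under 0.05. Rhbg is filled at -0.997 in KO-LK minus CT-NK and at -0.75 in the pooled comparison, and no other point is filled.

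Slc4a1 encodes the basolateral chloride-bicarbonate exchanger of alpha cells (ENSMUSG00000006574, chromosome 11, 102348824 to 102366203, minus strand). The KO-NK libraries held 260, 575, 54.8, 85.4, 211 and 115 CPM and the KO-LK libraries 137, 114, 51.1, 97.9, 164 and 82.0 CPM. The CT-HK libraries held 132, 75.8, 160, 69.2, 76.9 and 107 CPM and the CT-NK libraries 180, 166, 156, 44.7 and 75.8 CPM. It was the most uneven of the 7 readily detected genes, with a coefficient of variation of 79.0% over all libraries against 21.5% for Foxi1, and its groups overlapped. In KO-NK, 3 libraries lay above every CT-NK library and the others lay within its range.

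Slc4a1 was not called in any comparison over all libraries. Its log2 fold change was 0.80 in KO-NK against CT-NK (SE 0.46, edgeR adjusted p = 0.566), 1.07 in KO-NK against CT-HK (SE 0.43, edgeR adjusted p = 0.184) and -0.21 in KO-LK against CT-NK. Low against normal potassium within the knockouts gave -1.01, with an unadjusted edgeR p of 0.0303 and an adjusted p of 0.928. These values rested on KO-NK replicate 2: without it they were 0.22 in KO-NK against CT-NK, 0.56 in KO-NK against CT-HK and -0.41 in KO-LK against KO-NK. Without KO-NK replicate 3 the value against CT-HK was instead called at 1.32 (edgeR adjusted p = 0.0416), and limma on log2(TPM + 1) also called it (1.15, adjusted p = 0.0453). That limma fit called 5820 of 19668 genes in KO-NK against CT-HK. Red blood cell precursors also make Slc4a1, and erythroid marker genes, of which 8 of 9 were found, summed to 0.676 to 76.6 CPM. In KO-NK replicate 2, where Slc4a1 was highest at 575 CPM, that sum was 1.07 CPM, the lowest of its group. The part of red blood cell precursors in the Slc4a1 values was not tested.

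Kit is the stem cell factor receptor kinase, a surface marker of intercalated cells in the adult mouse collecting duct (ENSMUSG00000005672, chromosome 5, 75574916 to 75656722, plus strand). It held 137, 239, 90.7, 123, 126 and 99.9 CPM in KO-NK and 106, 67.3, 95.4, 105, 124 and 75.6 CPM in KO-LK. It held 81.1, 96.4, 98.5, 68.4, 54.2 and 51.8 CPM in CT-HK and 135, 76.8, 115, 40.1 and 42.2 CPM in CT-NK. KO-NK was the highest group by mean, 5 of its 6 libraries lay above all of CT-HK, and the groups still overlapped. Of the 12 knockout libraries, 10 lay above the control median. The log2 fold change of Kit was 0.86 in KO-NK against CT-HK (SE 0.28, edgeR adjusted p = 0.0752), where none of the 8 members and 5.78% of all genes were called (2.46% higher and 3.32% lower). It was 0.73 in KO-NK against CT-NK (SE 0.29, edgeR adjusted p = 0.275), with again no member called against 1.7% of all genes (0.937% higher and 0.763% lower), and 0.54 in the pooled comparison (SE 0.20, edgeR adjusted p = 0.0971). Whether Kit was called changed as single libraries were left out, also libraries that are not part of the comparison. With any 1 KO-LK library left out, or with KO-NK replicate 3, 4, 5 or 6 left out, edgeR called Kit in KO-NK against CT-HK (adjusted p from 0.00798 to 0.0424). With 1 of the same libraries or CT-NK replicate 1 left out it also called the pooled value (adjusted p from 0.0101 to 0.0463). KO-LK libraries enter KO-NK against CT-HK only through the filter, the scaling and the shared spread of the fit. Without KO-LK replicate 1 the value was 0.92. Without KO-NK replicate 2, the highest Kit library, edgeR called Kit in neither comparison. Over all omissions of 1 library, Kit ran from 0.70 to 1.04 in KO-NK against CT-HK. On log2(TPM + 1), limma called Kit in KO-NK against CT-NK (0.91, adjusted p = 0.0227), in KO-NK against CT-HK (1.31, 0.000774) and in the pooled comparison (0.92, 0.000418). Of 19668 genes, that limma fit called 3438, 5820 and 8124 in these comparisons. Mast cells also carry Kit, and 5 mast cell marker genes summed to at most 2.13 CPM in any library. The part of mast cells in the Kit values was not tested.

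Adgrf5, an adhesion G protein-coupled receptor of alpha intercalated cells that endothelium also makes (ENSMUSG00000056492, chromosome 17, 43360451 to 43459557, plus strand), had a like pattern. It held 190, 354, 95.3, 105, 165 and 137 CPM in KO-NK and 157, 146, 132, 112, 207 and 106 CPM in KO-LK. It held 134, 123, 141, 93.1, 101 and 102 CPM in CT-HK and 153, 83.7, 124, 76.4 and 96.2 CPM in CT-NK. Ranges overlapped, although 11 of 12 knockout libraries lay above the control median. The log2 fold change was 0.71 in KO-NK against CT-NK (edgeR adjusted p = 0.236), 0.42 in KO-LK against CT-NK and 0.51 in the pooled comparison (SE 0.18, edgeR adjusted p = 0.0875), and none was called. Without KO-NK replicate 3, edgeR called Adgrf5 in KO-NK against CT-NK (0.83, adjusted p = 0.0406) and in KO-NK against CT-HK (0.78, adjusted p = 0.0235). Without KO-NK replicate 2, its highest library, Adgrf5 was at 0.37 against CT-NK and 0.33 against CT-HK, neither called. edgeR called the pooled value without KO-NK replicate 3, without KO-NK replicate 4, 5 or 6, and without KO-LK replicate 3, 4 or 6 (adjusted p from 0.00598 to 0.0489). On log2(TPM + 1), limma called Adgrf5 in KO-NK against CT-NK (0.86, adjusted p = 0.0147), in KO-NK against CT-HK (0.80, 0.0106), in KO-LK against CT-NK (0.76, 0.0224) and in the pooled comparison (0.78, 0.000574). Of 19668 genes, that limma fit called 3438, 5820, 4776 and 8124 in these comparisons. The 8 endothelial markers, none of them called in any comparison, summed to 236 to 551 CPM in the knockouts and 152 to 505 CPM in the controls. The highest sum was in KO-NK replicate 2, where Adgrf5 was also highest, and its part in that value was not tested.

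Aqp6, a water and anion channel of intracellular vesicles in alpha cells (ENSMUSG00000043144, chromosome 15, 99601400 to 99605477, plus strand), averaged 47.3 ± 23.2 CPM in KO-NK, 37.8 ± 5.31 CPM in KO-LK, 32.9 ± 7.27 CPM in CT-HK (SD, n = 6 each) and 43.7 ± 25.6 CPM in CT-NK (n = 5). The CT-NK values were 44.9, 73.2, 64.3, 16.5 and 19.5 CPM and spanned those of KO-LK and CT-HK. The 6 comparisons gave log2 fold changes from -0.41 to 0.52, with none called by edgeR. On log2(TPM + 1), limma called Aqp6 higher in KO-NK against CT-HK (0.90, adjusted p = 0.0261) and in the pooled comparison (0.64, adjusted p = 0.0215). Of 19668 genes, that limma fit called 5820 and 8124 in these comparisons.

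Slc26a7, an anion exchanger (ENSMUSG00000040569, chromosome 4, 14502430 to 14621805, minus strand), had 0.494 to 1.39 CPM in KO-NK, 0.0763 to 0.734 CPM in KO-LK, 0.0414 to 0.477 CPM in CT-HK and 0.307 to 1.49 CPM in CT-NK. All KO-NK libraries lay above all CT-HK libraries, as they did for 2.05% of all genes, with a log2 fold change of 1.62 that was not called (SE 0.56, edgeR adjusted p = 0.0967). Such values rest on a few counts per library, and differences were not detectable at this depth.

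Diet alone moved none of the 8 genes past the threshold. In CT-HK against CT-NK edgeR called 0% of all genes, and 927 genes and 1 member, Slc26a7 at -1.58, had an unadjusted p under 0.05. In KO-LK against KO-NK it also called 0%, and 732 genes and 1 member, Slc4a1, had an unadjusted p under 0.05. DESeq2 called 17 and 24 genes in these 2 comparisons and no member in either. Of the 8 genes, 7, all but Foxi1 at 0.19, had log2 fold changes below 0 in KO-LK against KO-NK, with a median of -0.34 against -0.13 for all genes. That count rested on KO-NK replicate 2, since without it Adgrf5 was at 0.09, Aqp6 at 0.01 and Slc4a1 at -0.41.

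Ratios within a library do not depend on how libraries are scaled, and Foxi1 was taken as the denominator after its values were seen. Rhbg to Foxi1 had a mean log2 ratio of 0.71 ± 0.30 in KO-NK and 0.18 ± 0.39 in KO-LK, against 1.17 ± 0.29 in CT-HK (SD, n = 6 each) and 1.35 ± 0.56 in CT-NK (n = 5). The KO-LK libraries spanned -0.40 to 0.69 and the CT-NK libraries 0.95 to 2.34. Rhcg to Foxi1 spanned 1.13 to 1.68 in KO-LK and 1.69 to 2.27 in CT-NK, almost touching. Kit to Foxi1 spanned -2.24 to -1.28 in KO-NK and -3.0 to -2.36 in CT-HK, and it overlapped between KO-NK and CT-NK. On CPM, Rhcg and Kit overlapped between these same groups. Adgrf5 to Foxi1 averaged -1.53 ± 0.53 in KO-NK and -2.19 ± 0.29 in CT-NK, and the ranges overlapped. No test was run on these ratios. How often ratios of other genes to Foxi1 part the same groups was not counted, so these ranges are descriptions only.

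**Figure D3:**
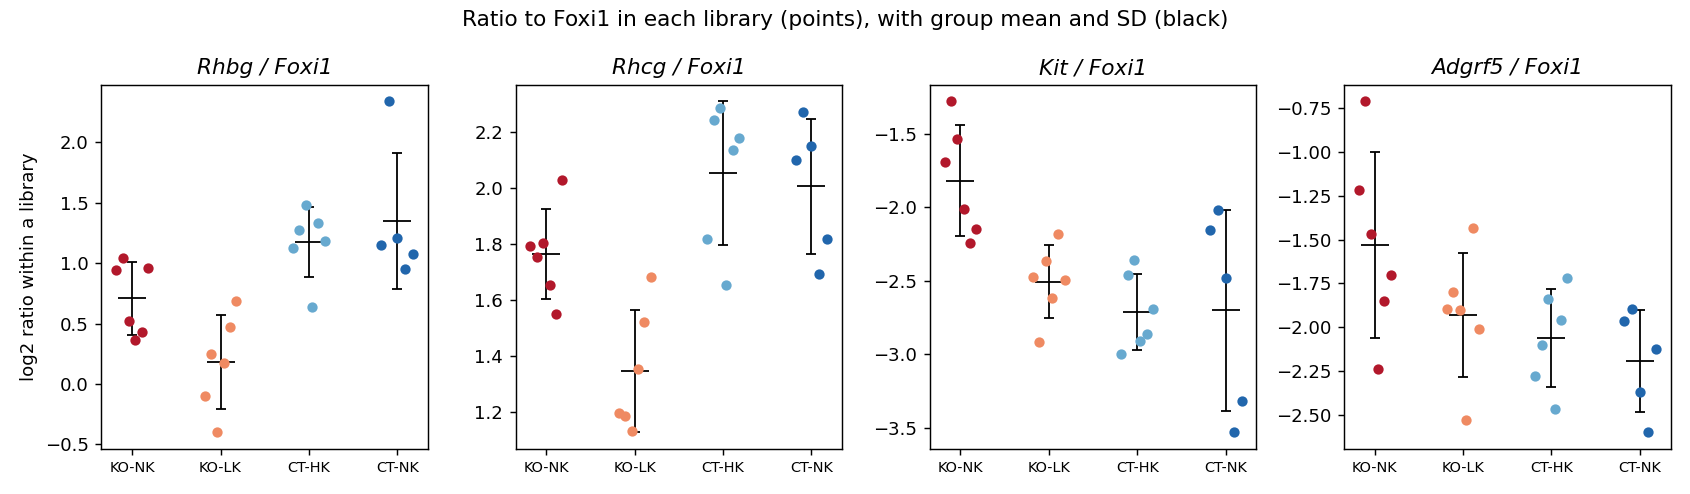
log2 ratio of the counts of Rhbg, Rhcg, Kit and Adgrf5 to those of Foxi1 within each library (points), with group mean and SD in black. Rhbg to Foxi1 is lowest in KO-LK, at a mean of 0.18, and Kit to Foxi1 is highest in KO-NK, at a mean of -1.82.

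Within groups, 7 of the 8 genes went up and down together from library to library. Deviations of log2 CPM from the group means were correlated over the 23 libraries for all 28 pairs, and p-values come from permutation within groups (100000 resamples) with adjustment over the 28 pairs. Of the 21 pairs without Slc26a7, r ran from 0.34 to 0.85, and 19 pairs had an adjusted permutation p under 0.05 for Pearson's r and 18 for Spearman's rho. Slc4a1 and Adgrf5 had the highest r, 0.85 (rho 0.80, permutation p = 3e-05 for r and 0.00019 for rho, adjusted p = 0.00042 and 0.00133), and r was 0.74 without the 2 libraries farthest out in Slc4a1. Rhbg and Rhcg had r of 0.81 (rho 0.72, permutation p = 7e-05 and 0.00093, adjusted p = 0.00049 and 0.0026) and 0.75 without the 2 libraries farthest out in Rhcg. Of the 7 pairs with Slc26a7, r ran from -0.39 to 0.03 and none passed. Going together within groups is not particular to these genes. The 21 pairs had a median r of 0.66, and these 7 genes had a median r of 0.47 with 9712 genes of at least 10 CPM, which may include the members. Of those values, 18.6% were above 0.66.

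The pairs differed once the group means were left in. Kit and Rhbg had r of 0.66 for deviations within groups (rho 0.69, permutation p = 0.00208 and 0.00152, adjusted p = 0.00529 and 0.00387), with 0.67 without the 2 libraries farthest out in Kit, and 0.09 for the values as measured. Adgrf5 and Rhbg went likewise to 0.11 as measured, with 0.64 within groups (rho 0.49, permutation p = 0.00589 and 0.0271, adjusted p = 0.0127 and 0.0421) and 0.58 without the 2 libraries farthest out in Adgrf5. Rhbg and Rhcg kept r of 0.86 as measured. Values of 1 library share its depth and scaling, whose part in these correlations was not tested.

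**Figure D4:**
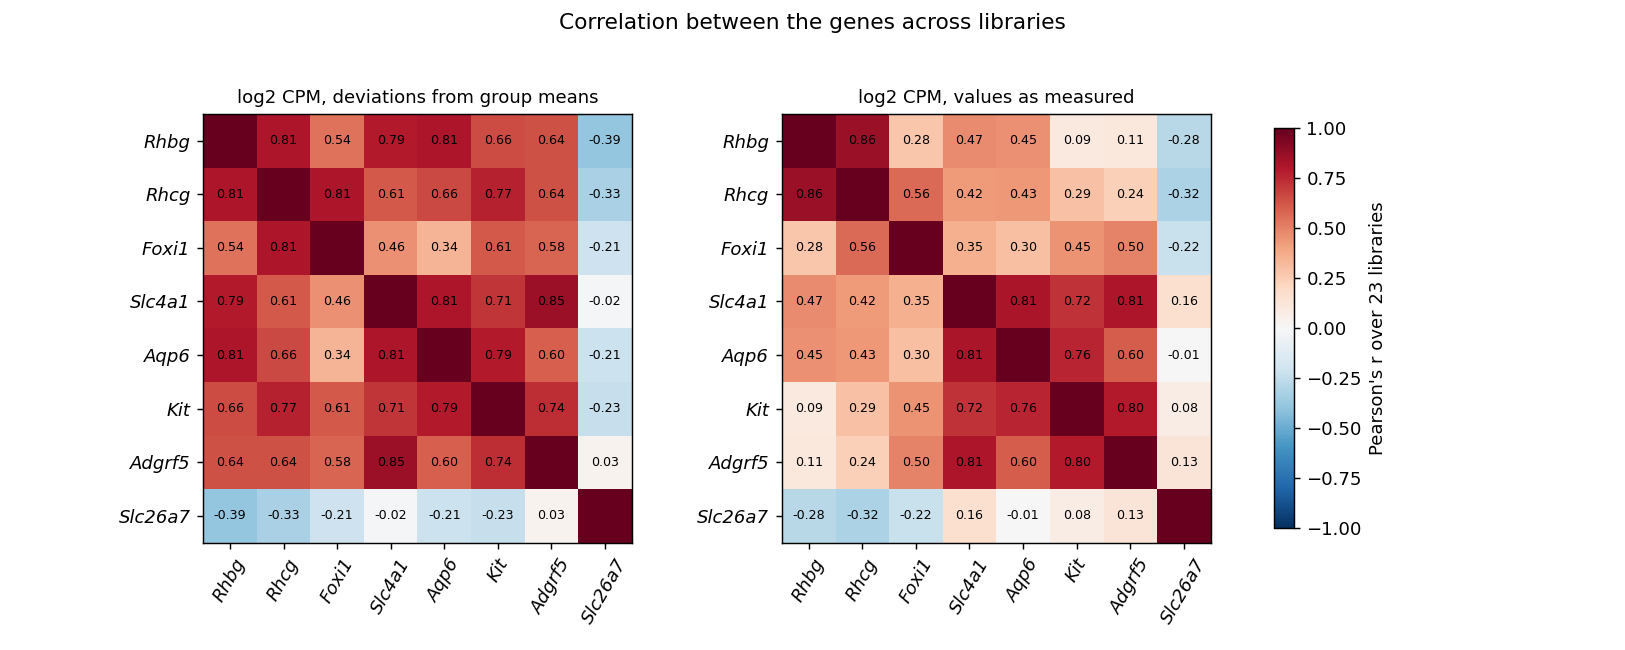
Pearson's r between the log2 CPM of each pair of genes over 23 libraries, for deviations from group means (left) and for the values as measured (right), with red above 0 and blue below. Kit and Rhbg have r of 0.66 on the left and 0.09 on the right, and Slc26a7 has r between -0.39 and 0.03 with the other genes on the left.

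Outside the 8 genes, 6 genes of at least 10 CPM had the pattern most like the mean of the members' standardised log2 CPM over the 23 libraries, of 9705 genes ranked. They were Mme (r = 0.90), Epb41l2 (0.86), Zcchc3 (0.85), Rassf7 (0.84), Ppp1r13b (0.83) and Sh3bgrl2 (0.83).

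Among 13 partners of acid secretion that were tested, 1 was called higher and none lower in the pooled comparison, with a list median of -0.10 against 0.09 for all genes. Of all genes, 4.67% were called higher and 5.86% lower there, which is the background for the lists below too. The lists were chosen with earlier results of these data known. The called gene was Atp12a, the non-gastric H+/K+-ATPase subunit, at 34.6 ± 10.8 CPM in KO-NK and 32.3 ± 14.5 CPM in KO-LK, against 1.46 ± 0.79 CPM in CT-HK (SD, n = 6 each) and 5.42 ± 3.58 CPM in CT-NK (n = 5). All its knockout libraries, 16.4 CPM or more, lay above all its control libraries, 10.4 CPM or less. Its log2 fold change was 2.68 in KO-NK and 2.58 in KO-LK against CT-NK (edgeR adjusted p = 0.00152 and 0.00165). Atp6v1b1, the intercalated cell subunit of the H+-ATPase, had a pooled value of -0.10 (edgeR adjusted p = 0.916).

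Of 8 further intercalated identity and signalling genes, 4 were called higher and none lower in the pooled comparison, against 4.67% of all genes called higher. The list median was 0.23. The called genes were P2ry14, a receptor for UDP-glucose, at 1.03, Avpr1a, a vasopressin receptor, at 0.84, Dmrt2, a transcription factor of alpha cells, at 0.59, and Jag1, a Notch ligand, at 0.58. Dmrt2 averaged 52.3 ± 22.3 CPM in KO-NK but 28.9 ± 3.87 CPM in KO-LK, against 22.3 ± 4.8 CPM in CT-HK and 29.6 ± 12.6 CPM in CT-NK. It was thus not higher in KO-LK than in CT-NK. P2ry14 averaged 24.3 ± 6.31 CPM in KO-NK and 24.2 ± 3.67 CPM in KO-LK, against 10.8 ± 1.62 CPM in CT-HK (SD, n = 6 each) and 13.1 ± 5.22 CPM in CT-NK (n = 5). Tfcp2l1, a transcription factor of the collecting duct, had a pooled value of -0.11 and was not called.

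Of 7 genes of the beta intercalated cell, the bicarbonate-secreting type, 1 was called lower and none higher in the pooled comparison, with a list median of -0.07. Spink8 averaged 155 ± 51.9 CPM in KO-NK and 134 ± 13.7 CPM in KO-LK, against 406 ± 62.8 CPM in CT-HK (SD, n = 6 each) and 448 ± 123 CPM in CT-NK (n = 5), a pooled log2 fold change of -1.56 (edgeR adjusted p = 2.71e-07). Slc26a4, the apical anion exchanger pendrin, had a pooled value of -0.19 and was not called. Markers of other cell types also moved in the pooled comparison, in which diet differs too. Of 5 connecting tubule genes, 3 (Calb1, S100g and Klk1) were called lower, and Trpv5 and Slc8a1 were not called. In KO-LK against CT-NK, Trpv5 was instead called higher (360 ± 120 against 148 ± 75.5 CPM). The 5 genes summed to 4663 to 18648 CPM in the knockouts, against 19276 to 63050 CPM in the controls. Klk1 had the highest mean of the 5 in every group, up to 33544 CPM in CT-HK. The sum thus weighs Klk1 most. Less connecting tubule and less RNA of these genes cannot be told apart in bulk RNA, and the amount of connecting tubule was not tested. That segment also makes Rhbg and Rhcg, and its part in their values was not tested. In the same comparison 2 of 11 principal cell genes and 1 of 6 genes of the thick limb and distal convoluted tubule were called higher, and 1 of 8 proximal tubule and 1 of 3 interstitial genes were called lower. No erythroid, mast cell, podocyte or leukocyte gene that was tested was called there.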

How the data were processed

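RNA of 23 libraries was made into full-length cDNA (SMART-Seq HT) and Nextera XT libraries, per the labels' protocols. Salmon (0.14.10) and the genome build GRCm38.p6 are named in the submitters' processing notes. The authors deposited expected counts per gene, of which 35.9% are not whole, and TPM values, which are shares scaled by transcript length. All 54393 gene IDs matched a symbol, and no sample column was left unused (0 others).

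Expected counts were rounded and fitted with edgeR 4.0.16 in R 4.3.3, by quasi-likelihood, with libraries scaled by TMM, genes of low count removed by filterByExpr, and the 4 group means estimated from all 23 libraries together, adjusted by Benjamini-Hochberg over 25829 genes at a threshold of 0.05. This left 19 residual degrees of freedom and a common biological coefficient of variation of 0.56. No library was left out, and none of 55 pairs within groups looked duplicated. Alternatives were DESeq2 1.42.0, edgeR with the size factors of DESeq2, other filters (none, or 5 CPM in 5 libraries), limma 3.58.1 on log2(TPM + 1) or with 0.1 added, a replicate block, fits on the compared groups alone, an offset for transcript length, covariates for intercalated, proximal tubule and thick limb genes, and leaving out libraries. Summing Rhbg with Gm38392 was added after seeing the data.

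The members and lists were chosen with earlier results of these data known. Named genes were all 8 members, the 6 genes most like them, and, of the intercalated lists, the genes called and the first of each list. On simulated counts with known changes, edgeR recovered 29% of genes changed 2-fold and 74% of genes changed 4-fold in KO-NK against CT-NK, with 5 false calls among 24375 genes. Of the 33 pairs of libraries with the same replicate number, 9 had deviations that correlated above 0.1, so the numbers were not taken as pairs. Every value with few counts is limited by counting error.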

Additional observations from a re-analysis of the deposited data

Results flagged for a closer look

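Of the 32 sets of values formed by 8 genes in 4 groups, 3 had 1 library far from the others by Dixon's test, and chance gives about 1 such set in 20. All 3 were KO-NK replicate 2, which was the highest of its 6 libraries. Aqp6 was at 91.1 CPM there, with a gap to the next library of 0.641 of the group's range, against a critical value of 0.625. Kit was at 239 CPM with a gap of 0.689, and Adgrf5 was at 354 CPM with a gap of 0.633. The same library was also the highest of its group for Slc4a1, Rhcg and Rhbg.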

How the results depend on the processing

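Of the 8 genes, edgeR called 0 in KO-NK against CT-NK, 1 in KO-LK against CT-NK, 0 in KO-NK against CT-HK, 0 in each diet comparison and 1 in the pooled comparison. Counts in the other fits follow. In KO-NK against CT-NK, they were 3 with the filter of 5 CPM, 2 with limma on log2(TPM + 1) or with 0.1 added, and 1 with limma and no filter. In KO-LK against CT-NK the 1 gene called by limma at either pseudocount was Adgrf5 and not Rhbg, and counts were 2 with the 5 CPM filter and 0 with no filter, with limma and no filter, with the replicate block and with the proximal tubule and thick limb covariates. In KO-NK against CT-HK they were 4 with limma at either pseudocount, 2 with limma and no filter or the 5 CPM filter, and 1 each with DESeq2, only the groups compared, the length offset and either kind of covariate. In the pooled comparison they were 4 with the 5 CPM filter, limma at either pseudocount or the intercalated covariate, 3 with limma and no filter, and 2 with DESeq2, its size factors or the replicate block. Calls over all genes rose in some of these fits and fell in others. In the order of these 4 comparisons, the 5 CPM filter called 2462, 2392, 3539 and 4742 of 12421 genes. Limma on log2(TPM + 1) called 3438, 4776, 5820 and 8124 of 19668 genes, and without a filter 2262, 3469, 4458 and 7179 of 51861. The intercalated covariate called 3130 of 25829 genes in the pooled comparison. Member counts in these fits are to be read beside those numbers. Leaving out 1 library gave 0 to 1, 0 to 2, 0 to 3 and 1 to 4 members in these 4 comparisons, with the highest count each time without KO-NK replicate 3. How many of all genes were called without 1 library is not given here. These counts, and members called only without 1 library, are therefore not read as a result about the members. Both diet comparisons stayed at 0 throughout. The causes were not tested. With the replicate block, Rhbg was at -0.96 in KO-LK against CT-NK (edgeR adjusted p = 0.0795) and at -0.75 in the pooled comparison (0.0159). On log2(TPM + 1), 95.6% of the genes called in the pooled comparison were higher, against 44.4% in edgeR.

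The pooled Rhbg call held in 11 of 14 alternatives and was lost in the 3 limma fits on TPM. Slc26a7 could not be fitted under filters that remove it. The design recovers large changes more often than changes near 2-fold, and depth limits Slc26a7.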
